A study of Rattus norvegicus with 49 samples.

Results

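The genes described here serve the display of peptides on MHC class I molecules: B2m, the light chain of class I; Psmb8, Psmb9 and Psmb10, the catalytic subunits of the immunoproteasome; Psme1 and Psme2, the subunits of the PA28 proteasome activator; and Tap1 and Tap2, the transporter that carries peptides into the endoplasmic reticulum. They were chosen by gene symbol in the platform annotation, and all 8 were on the array, on 10 probe sets of 15866. Fisher 344 rats gave CA1 tissue dissected from their left hippocampus, and each of 49 rats had its own Affymetrix RAE 230A array. Age is the only difference between the groups that the labels give: 3, 6, 9 and 12 months with 9 rats each, and 23 months with 13. The labels give no allele, drug or sex, and the series' design text also gives the oldest age as 25 months in 1 place. All animals had been trained and tested in a water maze before the tissue was taken, so no group was naive to training, and 2 aged animals had been removed for poor health.

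Cells cut their own proteins into peptides with the proteasome, a barrel of proteolytic and structural subunits. Where interferon or other inflammatory signals act, the catalytic subunits Psmb5, Psmb6 and Psmb7 are replaced in new particles by Psmb8, Psmb9 and Psmb10, and the PA28 ring docks on the barrel. The peptides pass through the Tap1 and Tap2 transporter and are loaded onto a class I heavy chain, which reaches the cell surface only with B2m. In the healthy brain class I levels are low in neurons and higher in microglia and endothelium. Psmb8, Psmb9, Tap1 and Tap2 lie side by side in the class II part of the MHC on rat chromosome 20, and Psme1 and Psme2 lie close together on chromosome 15.

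Array medians ran from 208.6 to 225.3 in the authors' intensity units. Testing was limited to genes whose probe set of highest mean passed a signal of 100 on 5 or more arrays, which 8093 of 10411 genes did. Of the 8 genes 7 did. Tap1 did not, and its signals are given below without a test over the tested genes. Psmb9 reached 100 on 13 of 13 arrays at 23 months against 1 of 9 at 3 months, and its counts of 5 and 8 arrays at 9 and 12 months each meet that minimum alone. Transcripts of neighbouring tissue and blood were high on a few arrays: transthyretin (Ttr), a choroid plexus transcript, had a median signal of 241.9 and a highest of 16310 at 23 months, against 437.4 and 12000 at 3 months, and the haemoglobin gene Hbb had a median of 17.3 and a highest of 4388 at 23 months, against 18.9 and 210.3 at 3 months. Of 8 markers of CA1 pyramidal cells and neurons 1 fell at 23 against 3 months, Pou3f1 (log2 difference −0.32), and the median was −0.10. At an unadjusted limma p under 0.05, 4 of the 8 were lower and 1 was higher. Of all 8093 genes 1167 had such a p. In the slope over all 5 ages 2 of the 8 fell. The CA1 markers Wfs1 and Fibcd1 had mean signals of 5129 ± 679 and 737 ± 132 at 23 months (SD, n = 13) and of 5656 ± 300 and 777.5 ± 145 at 3 months (SD, n = 9). Prox1, a marker of dentate granule cells, averaged 627.5 ± 220 at 23 months and 622.6 ± 274 at 3 months.

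**Figure D1:**
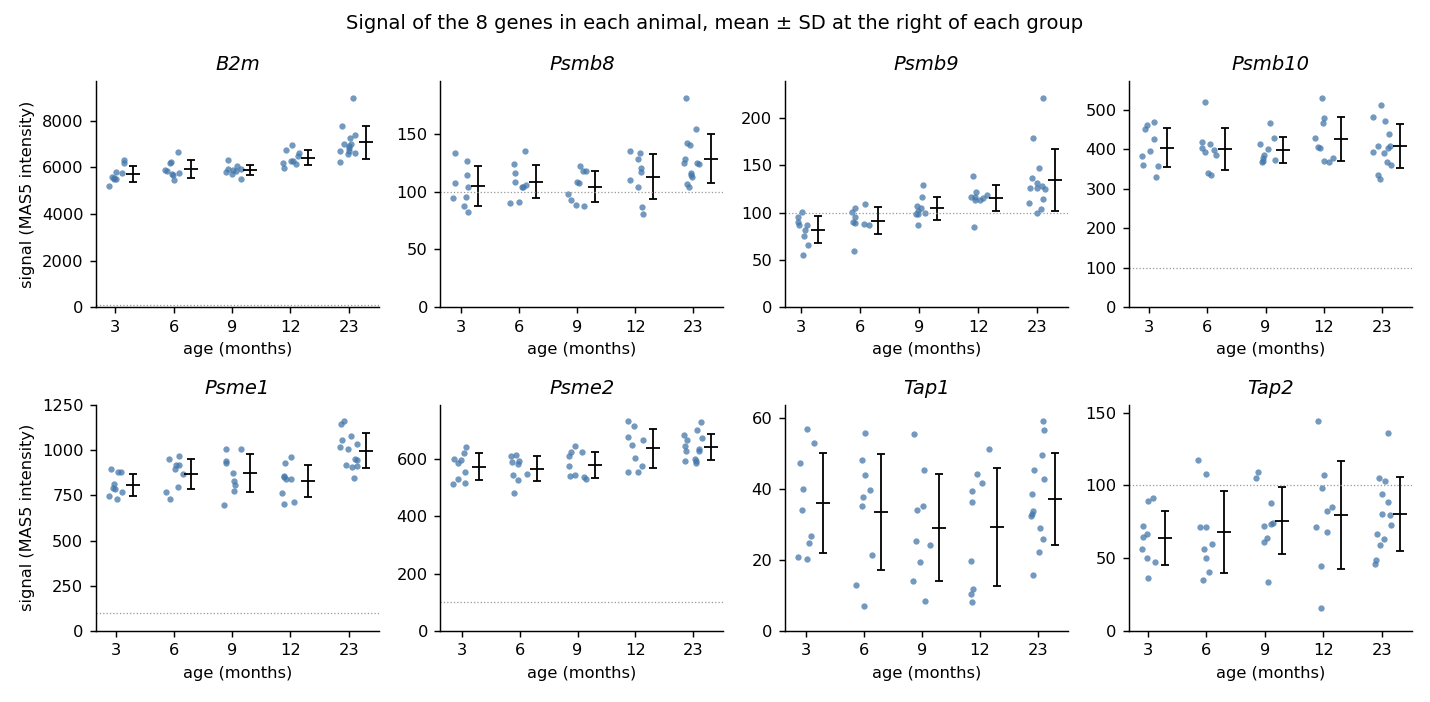
Signal of each of the 8 genes (vertical axis, linear MAS5 intensity, from 0) in each animal (points) by age in months (horizontal axis); the bar beside each group is mean ± SD and the dotted line is a signal of 100. B2m, Psmb9 and Psme1 sit highest at 23 months, Psmb10 has about the same mean at every age, and Tap1 and Tap2 lie mostly under 100.

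The rat promoters of these genes are shown because several carry the sequence through which interferon-activated factors are known to act. All 8 genes matched the RefSeq promoter table of build GRCr8, which holds 250 bases before to 50 after a transcript start. The interferon-stimulated response element was searched on both strands as GAAA, any 2 bases, GAAA. It was present in the windows of 6 of the 8 genes, with 7 matches, against 3.92% of 33469 windows of the same length. The 6 were B2m, Psmb8, Psmb10, Psme2, Tap1 and Tap2, and the windows of Psmb9 and Psme1 held none. A match outside a window would not be seen. The Tap1 match stands at −121 to −112 from the Tap1 start, between Tap1 and Psmb9, which are read away from each other. It is thus upstream of Psmb9 too, but outside the Psmb9 window. The Psme1 window ends in tttcgctt, with which a match on the other strand could begin. The match was GAAACTGAAA in B2m, at bases −150 to −141 from the start. In Psme2 it was GAAAGCGAAA at −53 to −44, and in Tap2 the same letters stood at −41 to −32. Psmb10 held a GAAAGTGAAA at −73 to −64 and a GAAAGCGAAA at −17 to −8. The windows of 5 genes are printed, 3 that rose at 23 months (B2m, Psmb9 and Psme1) and 2 that did not pass (Psme2 and Psmb10), 5′ to 3′ on the gene's strand with the matches in capitals.
B2m, chr3:129549080-129549379, plus strand: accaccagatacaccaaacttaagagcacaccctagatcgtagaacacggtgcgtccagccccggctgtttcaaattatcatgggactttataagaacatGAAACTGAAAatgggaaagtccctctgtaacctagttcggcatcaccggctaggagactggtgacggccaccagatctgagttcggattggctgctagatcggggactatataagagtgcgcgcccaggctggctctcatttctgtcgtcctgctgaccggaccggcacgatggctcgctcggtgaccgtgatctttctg
Psmb9, chr20:4668750-4669049, plus strand: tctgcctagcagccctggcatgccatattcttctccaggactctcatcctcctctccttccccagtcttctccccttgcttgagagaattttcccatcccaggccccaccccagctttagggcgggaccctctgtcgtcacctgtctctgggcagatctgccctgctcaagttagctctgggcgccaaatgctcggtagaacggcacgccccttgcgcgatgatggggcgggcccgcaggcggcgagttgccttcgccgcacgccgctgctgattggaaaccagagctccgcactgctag
Psme1, chr15:33038721-33039020, plus strand: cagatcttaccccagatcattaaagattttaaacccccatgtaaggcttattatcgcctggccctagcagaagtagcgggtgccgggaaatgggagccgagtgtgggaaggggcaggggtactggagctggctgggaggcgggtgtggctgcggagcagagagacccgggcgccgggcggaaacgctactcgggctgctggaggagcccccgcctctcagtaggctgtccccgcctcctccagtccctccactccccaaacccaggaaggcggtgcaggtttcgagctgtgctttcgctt
Psme2, chr15:33052702-33053001, minus strand: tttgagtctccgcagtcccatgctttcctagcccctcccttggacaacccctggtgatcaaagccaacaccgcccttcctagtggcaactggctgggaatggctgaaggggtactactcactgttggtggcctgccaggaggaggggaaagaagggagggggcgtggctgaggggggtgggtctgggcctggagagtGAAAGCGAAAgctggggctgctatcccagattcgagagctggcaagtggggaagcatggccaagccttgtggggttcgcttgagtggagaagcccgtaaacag
Psmb10, chr19:50743243-50743542, minus strand: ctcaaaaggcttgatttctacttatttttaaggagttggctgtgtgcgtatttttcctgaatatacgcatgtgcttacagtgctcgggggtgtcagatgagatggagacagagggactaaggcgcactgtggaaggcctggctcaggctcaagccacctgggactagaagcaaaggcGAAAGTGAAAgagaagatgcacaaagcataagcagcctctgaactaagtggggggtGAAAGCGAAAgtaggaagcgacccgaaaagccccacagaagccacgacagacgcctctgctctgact

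Motifs of NF-κB and of class I promoters were searched in the same way on both strands. The NF-κB pattern GGG, any 5 bases, CC was in 5 of the 8 windows and in 47.271% of all windows, and CCAAT was in 3 and in 37.494%. TGACG was in 2, those of B2m and Psmb9, and in 21.205%. No match of 1 motif overlapped a match of another. The windows of Tap1 and Psmb9, which are read away from each other, share 44 bases. A match is a run of letters and was not tested for binding here.

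At 23 months the CA1 tissue held more transcript of B2m, Psmb9 and Psme1 than at 3 months, while the Psmb10 signal differed by 0.011 on the log2 scale. In limma's test over all genes, 3 of the 7 tested genes were called, all higher, where 2.41% of all tested genes were called higher. The median log2 difference of the 7 was 0.300 (lowest 0.011, highest 0.70), against 0.000825 over all 8093 genes, and 7 of 7 were above 0. At an unadjusted p under 0.05 the count was 5, which adds Psmb8 and Psme2, where 1167 of all 8093 genes had such a p. In bulk tissue, more cells of a type and more RNA per cell cannot be told apart. Without the 5 arrays of high Ttr signal (4 of 3 months and 1 of 23 months), the 3 calls held, with log2 differences of 0.33 for B2m, 0.67 for Psmb9 and 0.39 for Psme1 (adjusted p = 3.94e-05, 0.00195 and 0.00115).

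B2m, the light chain that every classical class I molecule needs, had the smallest p of the 7 genes. At 23 months its signal ran from 6234.7 through a median of 6926.0 to 8991.5, with a mean of 7071 ± 698 (SD, n = 13). At 3 months it ran from 5191.8 through 5569.7 to 6300.7, with a mean of 5709 ± 353 (SD, n = 9). The groups overlapped only at the edge, with 12 of 13 animals of 23 months above the highest of 3 months. The log2 difference was 0.31 ± 0.042 (SE), or 1.24-fold (adjusted p = 7.36e-07). The other probe set of B2m gave means of 1234 ± 202 at 23 months and 999.6 ± 101 at 3 months, which differ by 0.29 on the log2 scale (adjusted p = 0.0128 over the 9541 annotated probe sets that met the filter). That probe set was not called in the F-test over the 5 ages (adjusted p = 0.11).

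Psmb9, the immunoproteasome subunit that takes the place of Psmb6, had the largest log2 difference of the 7 genes. At 23 months its signal ran from 100 through a median of 126.1 to 221.3, with a mean of 134 ± 33 (SD, n = 13). At 3 months it ran from 55.1 through 86.5 to 100.3, with a mean of 81.9 ± 14.4 (SD, n = 9). The lowest animal of 23 months and the highest of 3 months were the only overlap. The log2 difference was 0.70 ± 0.115 (SE), or 1.63-fold (adjusted p = 2.31e-05). These signals lie close to the filter level of 100.

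The other catalytic subunits were not called. Psmb8, which takes the place of Psmb5, had a signal of 104.1 to 181.7 with a median of 124.8 at 23 months, against 82.2 to 133.5 with a median of 104.1 at 3 months. Its log2 difference of 0.29 ± 0.104 did not pass over all genes (adjusted p = 0.116, 95% interval 0.0843 to 0.501), although 12 of 13 old animals were above the 3-month mean of 105. Psmb10, which takes the place of Psmb7, had a signal of 325.5 to 513.4 at 23 months, with a mean of 408 ± 56.4, against 331.0 to 468.4 with a mean of 404 ± 49.96 at 3 months. The ranges of Psmb10 overlapped, with 3 of 13 old animals above the highest young one, and its difference of 0.011 ± 0.076 had a 95% interval of −0.141 to 0.164.

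Psme1 and Psme2, the α and β subunits of PA28, were above the 3-month mean in 13 of 13 old animals, and the difference of Psme1 passed. Psme1 ran from 847.0 through a median of 1005.8 to 1160.3 at 23 months, with a mean of 999 ± 95.6 (SD, n = 13). At 3 months it ran from 732.6 through 789.3 to 894.4, with a mean of 810 ± 61.1 (SD, n = 9). Of the 13 old animals 12 lay above the highest young one, and the log2 difference was 0.30 ± 0.063, or 1.23-fold (adjusted p = 0.00127). Psme2 ran from 585.2 through 634.6 to 730.9 at 23 months, against 514.4 through 586.1 to 641.1 at 3 months. Of the old animals 6 were above the highest of 3 months, and the difference of 0.17 ± 0.054 did not pass (adjusted p = 0.075). It passed without 3 months replicate 4, the highest of its group for Psme2 (0.19, adjusted p = 0.046).

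The transporter genes were near the limit of these arrays. Tap2 had a signal of 45.8 to 136.3 with a median of 79.7 at 23 months, against 36.3 to 91.4 with a median of 64.8 at 3 months. Its difference of 0.32 ± 0.249 did not pass (adjusted p = 0.605), and the 95% interval of −0.177 to 0.82 spans the sizes seen for the other genes. The Tap1 probe set of higher mean lay between 15.8 and 59.1 at 23 months and between 20.4 and 57.0 at 3 months, and reached 100 on 0 of 49 arrays. The other had medians of 48.1 at 23 months and 28.9 at 3 months and reached 100 on 1 array, that of 23 months replicate 8 at 125.1. With no filter on signal, the log2 differences of the Tap1 probe sets were 0.060 and 0.75 (adjusted p = 0.979 and 0.214). For the other probe set the unadjusted limma p in this contrast was 0.015. It differed by 1.02 at 23 against 12 months (unadjusted p = 0.00132, adjusted p = 0.255) and by −0.27 at 12 against 3 months. Its F-test over all ages gave an unadjusted p of 0.0019 (adjusted p = 0.107). The probe set of higher mean had no unadjusted p under 0.05 in these tests. Neither probe set passed, and at signals this low whether Tap1 changed could not be decided.

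The F-test over all 5 ages called the same genes as the youngest against the oldest, and the slope over age added Psmb8 and Psme2. In the F-test over the 5 ages, B2m, Psmb9 and Psme1 were called, 3 of the 7 genes where 1.88% of all genes were called (adjusted p = 1.09e-06, 1.59e-04 and 0.00677). Regressed on age in months over all 49 arrays, 5 of the 7 rose, where 3.47% of all genes were called higher. Psmb9 rose by 0.033 ± 0.0052 log2 units a month (SE), B2m by 0.016 ± 0.0019, Psmb8 by 0.015 ± 0.0045, Psme1 by 0.014 ± 0.0029 and Psme2 by 0.0095 ± 0.0024 (adjusted p = 6.06e-06, 1.30e-08, 0.0336, 8.80e-04 and 0.00959). Psmb10 and Tap2 did not pass. Without 23 months replicates 8 and 9 the count was 4, and Psmb8 was no longer called. The same call was lost without any 1 of 3 months replicates 2, 7 and 9 and 23 months replicates 3, 8, 9 and 14. The Psmb8 and Psme2 results of this fit draw on all 5 ages, while their contrasts of 23 against 3 months did not pass.

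**Figure D2:**
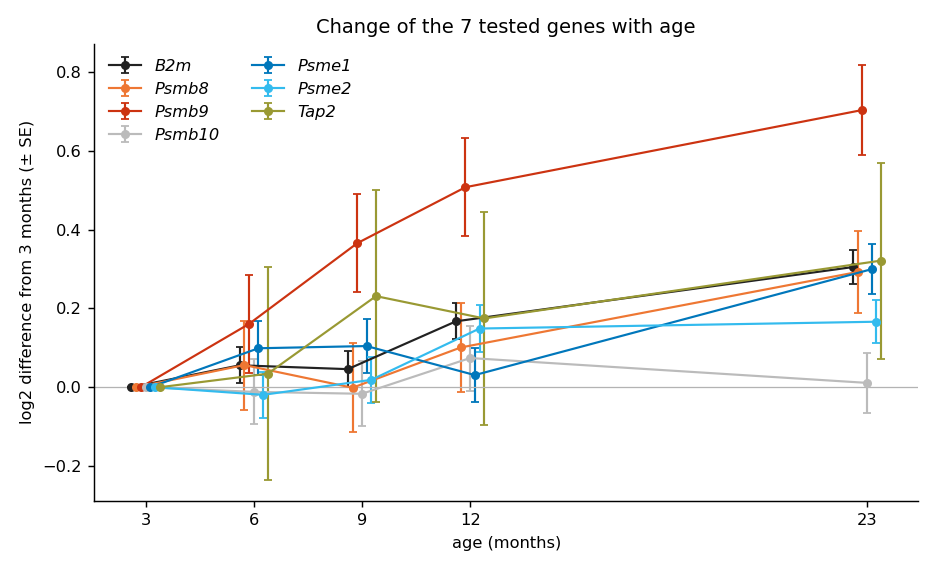
Log2 difference from 3 months (vertical axis, limma estimate ± SE, 3 months set at 0) of the 7 tested genes at each age in months (horizontal axis, points shifted sideways to separate them). Psmb9 stands at 0.51 by 12 months, Psme1 is at 0.031 at 12 months and 0.30 at 23 months, and Psmb10 stays within 0.08 of 0.

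Psmb9 was the gene of the 7 whose slope over the younger ages passed. Its mean signal was 81.9 ± 14.4 at 3 months, 91.3 ± 14.3 at 6, 104 ± 12.3 at 9, 115 ± 14.0 at 12 and 134 ± 33 at 23 months. Neighbouring ages overlapped throughout, and 8 of 9 animals of 12 months lay above the highest of 3 months. Over the 36 animals of 3 to 12 months it rose by 0.058 ± 0.0123 log2 units a month (adjusted p = 0.0107), the 1 gene of the 7 called where 0.284% of all genes were called higher. That call was lost without the 5 arrays of high Ttr signal, when 0 of the 7 genes passed. Without them the Psmb9 difference at 12 against 3 months was 0.489 ± 0.147, against 0.51 ± 0.125 with them. B2m had means of 5709 ± 353, 5934 ± 368, 5888 ± 226, 6408 ± 324 and 7071 ± 698 in the same order, and its slope of 0.016 ± 0.0042 over 3 to 12 months did not pass (adjusted p = 0.079).

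In the contrasts of single ages with 3 months, none of the 7 genes was called by limma at 12, 9 or 6 months, where 0.198%, 0.0371% and 0.0124% of all genes were called higher. At an unadjusted p under 0.05 the counts were 3, 1 and 0, where 641, 250 and 231 of the 8093 genes had such a p. At 12 against 3 months the differences were 0.51 ± 0.125 for Psmb9 (adjusted p = 0.0613), 0.17 ± 0.046 for B2m (adjusted p = 0.116) and 0.15 ± 0.059 for Psme2 (adjusted p = 0.483). Both Psmb9 and B2m passed at 12 against 3 months without 23 months replicates 8 and 9 (adjusted p = 0.0157 and 0.0263), a removal that changes only the shared spread (SE 0.112 for Psmb9 and 0.0385 for B2m). Of single arrays, leaving out 23 months replicate 8 brought B2m past the threshold (adjusted p = 0.0414), and leaving out 1 of 3 months replicates 8 and 9, 6 months replicate 1, 12 months replicate 4 or 23 months replicates 8 and 9 brought Psmb9 past it (lowest adjusted p = 0.0248).

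The PA28 genes are set side by side by age, and whether their courses differ was not tested. Psme1 had means of 810 ± 61.1, 869 ± 83.7, 875 ± 107, 830 ± 88.7 and 999 ± 95.6 at 3, 6, 9, 12 and 23 months. Psme2 had means of 574 ± 46.5, 566 ± 43.9, 581 ± 45.4, 637 ± 67.3 and 643 ± 45.2. At 23 against 12 months Psme1 was the 1 gene of the 7 called, at 0.27 ± 0.063 (adjusted p = 0.029), where 0.334% of all genes were called higher, and Psme2 differed by 0.017 ± 0.054. That call depended on single arrays: 12 months replicates 3, 5 and 6 and 23 months replicates 3, 5, 7, 8 and 9, each removed alone, took the adjusted p of Psme1 past the threshold, to 0.115 at most, and median centring took it to 0.116. The log2 ratio of Psme1 to Psme2 on the same array, relative to its 3-month mean, was 0.12 ± 0.195 at 6 months, 0.086 ± 0.167 at 9, −0.12 ± 0.232 at 12 and 0.13 ± 0.113 at 23 months (SD), so the ages overlapped in it. This ratio was looked at after the values were seen and was not tested.

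The constitutive subunits gave a comparison that a scaling factor per array cannot move, since both genes of a pair are read on the same array. Psmb5 had mean signals of 3839 ± 248 at 23 months and 4044 ± 273 at 3 months, and Psmb7 had 3505 ± 338 and 3663 ± 236. Neither was called (log2 differences −0.075 and −0.067, adjusted p = 0.487 and 0.579). The log2 ratio of Psmb8 to Psmb5 was higher by 0.37 ± 0.128 (SE) at 23 than at 3 months, a 1.29-fold change of the ratio (exact two-sided permutation test, n = 13 and 9, p = 0.00805, 0.0161 after Benjamini-Hochberg adjustment over 2 pairs). The ratio of Psmb10 to Psmb7 differed by 0.078 ± 0.094 (exact permutation p = 0.45). The probe sets of Psmb6 and Psme3 are annotated to several genes and were not used, so Psmb9, Psme1 and Psme2 had no partner.

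No other listed and tested gene of the proteasome was called at 23 against 3 months, and 1 was in the slope over all ages. Of 13 tested genes of the constitutive 20S core, 0 were called by limma at 23 against 3 months and 0 had an unadjusted p under 0.05, and the log2 differences ran from −0.079 (Psma7) to 0.087 around a median of −0.057. Of 24 genes of the 19S regulator and of proteasome assembly 0 were called, with a median of −6.92e-05, and 1 had an unadjusted p under 0.05, Psmd8, a lid subunit, at −0.16 (adjusted p = 0.061). Psmd8 fell in the slope over all ages, by 0.0082 ± 0.0022 log2 units a month (adjusted p = 0.0124), the 1 of the 24 called there, against 0 of the 13 core genes. Over all 8093 genes 414 were called in that slope, in either direction. All genes tested had a median of 0.000825 at 23 against 3 months.

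The tested genes of the later steps of class I presentation were not called either. Of 5 tested genes of peptide loading in the endoplasmic reticulum 0 were called and 0 had an unadjusted p under 0.05. Among them, Tapbp, the tapasin that tethers the transporter to class I, was at 0.13 ± 0.096. Of 8 tested heavy chains and class I-like partners of B2m 0 were called and 0 had an unadjusted p under 0.05, with a median of 0.062 against 0.31 for B2m itself. The platform held 16 such genes, and the median signal of 9 was under 100 at 3 and at 23 months. RT1-A, with mean signals of 41.38 at 3 months and 52.65 at 23 months, was among those not tested. RT1-S3 averaged 232.1 ± 40.2 at 23 months and 208.0 ± 16.9 at 3 months, with a log2 difference of 0.14 ± 0.080 (adjusted p = 0.413). RT1-M3-1 averaged 404.5 ± 41.7 at 23 months and 395.4 ± 43.5 at 3 months, and Fcgrt, the neonatal Fc receptor that also pairs with B2m, differed by 0.076 ± 0.087. The log2 differences of RT1-CE10, RT1-CE12, RT1-CE16, RT1-A3 and RT1-T24-4 were 0.14, 0.13, 0.049, −0.040 and −0.032. Rat heavy chain genes are near-identical copies that differ between strains, so which of them a probe set reads is uncertain.

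Genes of interferon signalling were not called at 23 against 3 months. In the slope over all ages 1 of 15 signalling genes and 1 of 9 interferon targets were called higher, where 3.47% of all genes were. Of 15 tested interferon and NF-κB signalling genes 0 were called at 23 against 3 months, 3 had an unadjusted p under 0.05, all higher, and the median was 0.138. Over all tested genes 1167 of 8093 had an unadjusted p under 0.05 in either direction. Ifngr1, a chain of the interferon gamma receptor, was at 0.20 ± 0.061 (adjusted p = 0.0537) and rose in the slope over all ages by 0.0094 ± 0.0026 log2 units a month (adjusted p = 0.0209). Of 9 tested interferon targets outside class I 0 were called and 3 had an unadjusted p under 0.05. All 9 were above 0, with a median of 0.213, and Ifitm3, an antiviral membrane protein gene, was at 0.29 ± 0.090 (adjusted p = 0.0553) and rose in that slope by 0.015 ± 0.0039 (adjusted p = 0.0127).

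**Figure D3:**
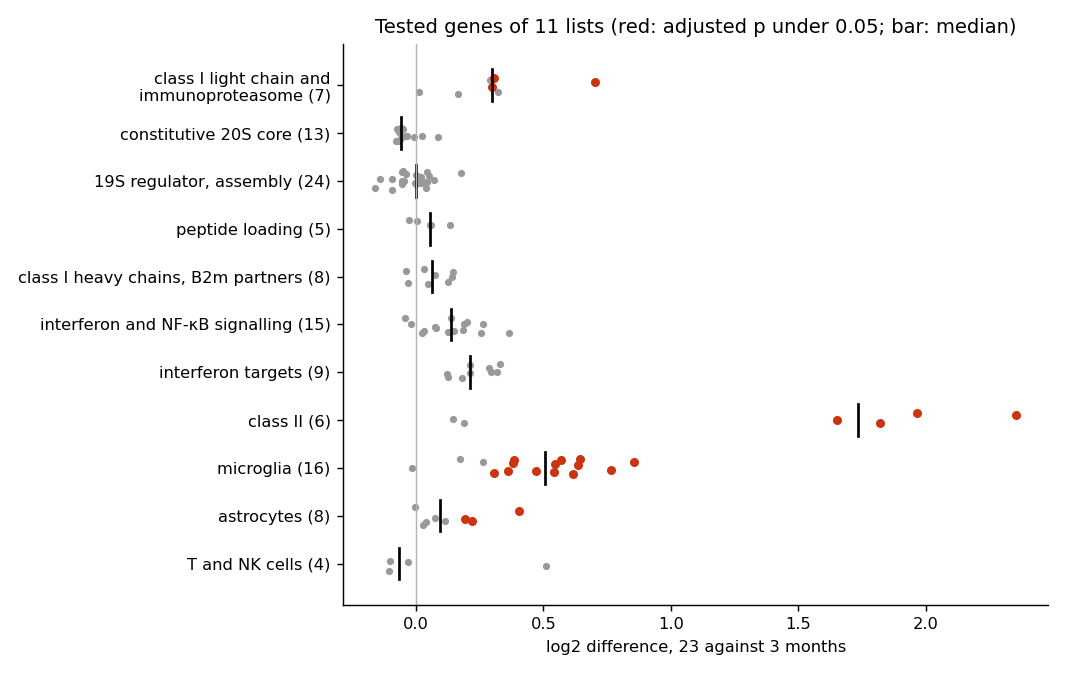
Log2 difference at 23 against 3 months (horizontal axis) of every tested gene in each of 11 lists (rows, number of genes in brackets); red points have an adjusted p under 0.05 and the black bar is the list's median. Genes of peptide loading and the heavy chains lie between −0.040 and 0.14, and class II and microglial genes lie farthest to the right.

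Markers of other cells also differed between 23 and 3 months, where 2.41% of all tested genes were called higher. Of 16 tested microglial markers 13 rose at 23 against 3 months, with a median log2 difference of 0.51, and the smallest p-values were those of Fcer1g (0.77), Cd53 (0.86) and Laptm5 (0.62). The summed signal of the 18 microglial markers on the platform was 12640 to 19640 at 23 months, against 9585 to 11130 at 3 months, ranges that do not overlap. The median signal was under 100 for 3 of the 18 at both ages. Of 8 astrocyte markers 3 rose, Gfap, S100b and Slc1a3 (0.40, 0.22 and 0.19), with summed signals of 43160 to 55550 at 23 months and 41170 to 48680 at 3 months. Of 10 endothelial markers 1 rose, the transporter gene Abcb1a (0.49), with summed signals of 4156 to 6423 at 23 months and 3729 to 4348 at 3 months. Of 6 class II genes 4 rose, RT1-Ba, RT1-Da, RT1-Bb and Cd74, with summed signals over 8 genes of 1925 to 8453 at 23 months and 1356 to 1661 at 3 months. RT1-Bb was at most 92.1 at the younger ages, so it met the filter of 100 only through its 23-month arrays. Its rise is therefore given as a description. Of 6 oligodendrocyte markers 1 fell and 0 rose, with a median log2 difference of −0.0499. At 23 against 12 months 3 of the 16 microglial markers rose (Aif1, C1qa and Fcer1g), where 0.334% of all genes were called higher. At 12 against 3 months 2 rose (Cd53 and Fcer1g), where 0.198% of all genes were called higher. The summed microglial signal at 12 months was 10910 to 13580. The part of these cells in the rise of the class I genes was not tested.

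T and NK cell markers had low signals at both ages. Of the 14 T and NK cell genes on the platform, the median signal of 11 was under 100 at 23 months, against 12 at 3 months, and 0 of the 4 tested were called, with 0 at an unadjusted p under 0.05. Of the 4, 1 was higher and 3 were lower, with a median log2 difference of −0.0663. The smallest p of the 4 was that of Cd4, the 1 that was higher, at 0.51 ± 0.264 (adjusted p = 0.37). The summed signal of the 14 was 618.1 to 1936 at 23 months and 568.4 to 797.7 at 3 months. Cd3d, a T cell receptor chain gene chosen after its values were seen, had a median signal of 18.7 at 23 months and 14.6 at 3 months, and Cd3e had 102.9 at 23 months and 113.8 at 3 months.

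At 23 months 1 animal stood highest for several of these genes. Replicate 8 had the highest signal of the 13 for B2m (8991.5, where the others lay between 6234.7 and 7760.7), for Psmb8 (181.7, others 104.1 to 154.2), for Psmb9 (221.3, others 100 to 179.0) and for the other probe set of Tap1 (125.1, others 11.1 to 61.8). The same array had 4388.1 for Hbb, where the other old animals were at most 658.6. It was also the highest of the old animals for genes of cytotoxic lymphocytes, named after their values were seen: the chemokine gene Ccl5 stood at 713.7 (others at most 341.1), the perforin gene Prf1 at 211.1 (at most 85.0), the granule protein gene Nkg7 at 184.5 (at most 75.8) and the granzyme gene Gzmb at 178.4 (at most 41.1). Its Cd3d, Cd3e and Cd3g signals of 7.4, 87.9 and 48.8 were inside the range of the other old animals. So were its Cd2, Cd4, Cd8a, Lck and Cd247 signals of 27.9, 98.2, 19.6, 204.3 and 66.8. This array also had the highest summed signal of the 13 for interferon targets outside class I (9016, median 6208). The same held for endothelial markers (6423, median 4515) and for heavy chains and B2m partners (2229, median 1817).

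Replicate 9 was the next highest for B2m, Psmb8 and Psmb9 (7760.7, 154.2 and 179.0) and the highest for Psme1 and Psmb10 (1160.3 and 513.4). It did not share the lymphocyte signals, with 40.0 for Ccl5 and 5.8 for Nkg7, but was the highest of the old animals for class II genes, with 2439.3 for Cd74. Leaving out both animals was an alternative added after seeing the data. B2m, Psmb9 and Psme1 were then still called at 23 against 3 months, at 0.26, 0.595 and 0.269 (adjusted p = 1.3e-06, 0.000146 and 0.00716). Psme1 was no longer called in the F-test, which left 2 genes.

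**Figure D4:**
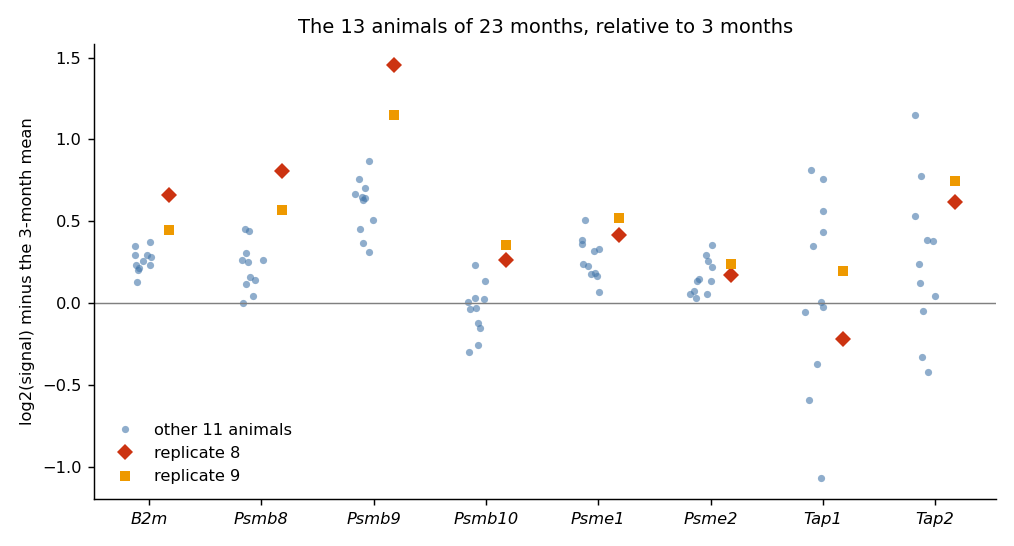
Log2 signal of the 8 genes in each of the 13 animals of 23 months, minus the mean log2 signal of the 9 animals of 3 months (vertical axis, 0 is the 3-month mean; signals under 16 set to 16). Replicate 8 (red diamonds) and replicate 9 (orange squares) are the highest points for B2m, Psmb8 and Psmb9, and the remaining 11 animals are above 0 for B2m, Psmb9 and Psme1.

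Among animals of the same age, no pair of these genes passed a test of co-variation. The log2 signals of the 7 tested genes were correlated over the 49 arrays after the mean of each age was taken off, in 21 pairs with permutation within ages. After Benjamini-Hochberg adjustment 0 of the 21 passed for Pearson's r or for Spearman's rho, and 17 of the r values were above 0, with a median of 0.162. The highest were B2m with Psmb10 (r = 0.393, permutation p = 0.0108, adjusted p = 0.227, rho = 0.314, permutation p = 0.038, adjusted p = 0.395) and B2m with Psmb9 (r = 0.368, permutation p = 0.0275, adjusted p = 0.289, rho = 0.188, permutation p = 0.211, adjusted p = 0.632). Without the 2 arrays farthest from the median of B2m these were r = 0.247 and 0.171. B2m with Psmb9 rested on the 2 old animals just described, and was r = 0.0135 without them. Psme1 and Psme2, whose products form 1 ring, had r = 0.203 (permutation p = 0.185, adjusted p = 0.436) and rho = 0.212 (permutation p = 0.164, adjusted p = 0.574).

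For each of the 3 genes called at 23 against 3 months, the 5 genes most like it in variation within ages are named. Of 8086 other tested genes, B2m went most closely with Bsg, which encodes the membrane glycoprotein basigin (r = 0.616, rho = 0.5), then Adgrl4, an adhesion receptor gene of endothelium (r = 0.598), Gfap (r = 0.590), Tagln2 (r = 0.586) and Emc7 (r = 0.547), over 49 arrays. Without the 2 arrays farthest from the median of B2m these values were 0.462, 0.409, 0.391, 0.290 and 0.406. Psmb9 went most closely with Fosl2, Nhsl3, Grm2, Pafah1b3 and Kcnc4 (r = 0.519, 0.518, 0.514, 0.513 and 0.499), which were 0.307, 0.458, 0.411, 0.416 and 0.441 without the 2 arrays farthest from its median. Psme1 went most closely with Mettl17, Parp6, Dpp7, Slc25a39 and Spint2 (r = 0.582, 0.569, 0.558, 0.548 and 0.544), which were 0.544, 0.465, 0.510, 0.491 and 0.549 without 2 such arrays. Of these 15 genes only Gfap was itself called at 23 against 3 months. They are the highest of many values on arrays that share their scaling, so they are given as a description.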

How the data were processed

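RNA of 49 animals was hybridised to 1 array each. Deposited values are linear MAS5 intensities (per the submitters' processing notes; the version is not given in the sources used here), which the authors had scaled to a target intensity of 500 (series' design text). No detection call or scan date was used, so batches were not tested. Probe sets with 1 gene symbol (12783 of 15866, 57 controls aside) were used, symbols were updated by Entrez ID (12748 matched, RefSeq table of GRCr8), and each gene was read by its probe set of highest mean log2 signal. Signals under 16 were set to 16, with no further scaling; fold changes are on this log2 scale. 8093 genes with a signal of 100 on at least 5 arrays were tested.

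limma 3.58.1 in R 4.3.3 (lmFit, eBayes with a variance trend) fitted a mean per age over all 49 arrays. Benjamini-Hochberg adjustment ran over all 8093 genes for the F-test, each contrast and each slope in months, and a gene was called under 0.05. Single ratios were compared by exact permutation and correlations by 100000 permutations within ages. The error behind each p-value is the variation among animals, and precision is limited by the number of arrays. On simulated data shaped as 23 against 3 months (8093 genes), limma found 24 of 50 genes shifted by 0.25 log2 units, 45 of 50 at 0.5, and all 50 at both 1 and 2, and made 4 false calls. Named were every probe set of the 8 genes, constitutive counterparts, heavy chains, leading genes of each list, and the 5 genes closest to each called gene. The members and lists were chosen with earlier results of these data known. Alternatives changed the floor, the filter, the scaling, the variance trend, the weighting of arrays, the arrays included, the use of all probe sets, and blocking by replicate number. Nothing in the labels ties same-numbered animals, so the numbers were not taken to pair animals. Over 5 comparisons the correlations of deviations between same-numbered animals ran from −0.116 to 0.267. Their medians were above 0 in each comparison, from 0.023 to 0.133. Whether same-numbered arrays share a common factor was not tested.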

Additional observations from a re-analysis of the deposited data

Results flagged for a closer look

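Of 40 groups of 9 animals examined, 10 probe sets at 4 ages, 4 held an animal set apart from its group by Dixon's criterion, which by chance marks about 1 in 20 groups. Psmb9 was low in 2 of them: 59.3 in 6 months replicate 1, against 87.0 to 108.8 in the other 8, and 84.6 in 12 months replicate 4, against 113.0 to 139.1. Psmb10 was high in 6 months replicate 2, at 519.6 against 334.7 to 417.9 in the others. The other probe set of B2m (mean 999.6 at 3 months) was high in 12 months replicate 3, at 1568.1 against 967.7 to 1239.8. The main B2m probe set was not set apart in that animal.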

How the results depend on the processing

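The 3 genes called at 23 against 3 months (B2m, Psmb9 and Psme1) kept direction and call under all 12 alternatives and with each of 49 arrays left out, when the count was 3 to 4. Other counts moved. At 12 against 3 months, 0 genes became 1 (Psmb9) with a floor of 64 or no variance trend, and 2 (B2m and Psmb9) with array weights or without 23 months replicates 8 and 9 (0 to 2 leaving out 1 array). At 23 against 12 months, the 1 call (Psme1) became 0 under median centring, array weights, a fit of these ages alone, or without replicates 8 and 9 (0 to 1 leaving out 1 array). The slope over 3 to 12 months gave 2 calls with array weights and 0 without the 5 arrays of high transthyretin signal (1 to 2 leaving out 1 array). With the replicate number as a block the Psmb8 to Psmb5 ratio differed by 0.382 and no longer passed (8 pairs, adjusted p = 0.141). No count moved by over 1.5 times with this block. At 23 against 3 months 3 of 8 animals correlated best with their own number. The counts were 4 of 9 at 12, 9 and 6 against 3 months and 0 of 8 at 23 against 12 months. Whether they exceed what unrelated numbers give was not tested. Among correlations, 1 pair passed under quantile normalization (B2m with Psmb9) and 1 without the high transthyretin arrays (B2m with Psmb10). The causes were not tested. Signals near 100 limit Psmb8, Psmb9 and Tap2, and those of Tap1 were lower.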
